A study of Mus musculus with 12 samples.

Results

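The genes described here are 51 genes of DNA replication and cell division. They are the members of a fixed list of symbols, found through the probe annotation, and they split into 27 genes that act in S phase (Mcm2 to Fen1) and 24 that act in mitosis (Ccna2 to Ckap2). They make up 51 of the 8277 named genes measured here, and 80 probes read them, 19 members through more than 1 probe. All 80 probes passed the filter on dim probes, so no member was lost. Total RNA came from immortalized MEFs, fibroblasts grown out of mouse embryos, which were either Rictor+/+ or Rictor-/-. Rictor encodes the scaffold protein that marks mTOR complex 2, which phosphorylates AKT. Each genotype was left untreated or was given mouse interferon-alpha (IFN) at 2500 U/ml for 24 hours, and 12 Illumina BeadChip arrays gave 4 groups of 3. Untreated Rictor+/+ cells were on arrays 1, 5 and 9, IFN-treated Rictor+/+ cells on arrays 2, 6 and 10, untreated Rictor-/- cells on arrays 3, 7 and 11, and IFN-treated Rictor-/- cells on arrays 4, 8 and 12. All groups grew in the same serum-containing medium. For every sample the label on treatment also names small interfering RNAs against Rictor, beside a genotype label that calls the cells Rictor+/+ or Rictor-/-, and the genotype label was followed. As far as the labels tell, each genotype is 1 cell line, so that genotype and line cannot be told apart. Nothing in them says that the arrays of a group hold separate cultures, and p-values then measure only the spread between these arrays, which may be technical.

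A dividing cell copies its DNA once in S phase and parts the copies in mitosis, and the genes for these tasks are transcribed in waves. The S phase wave is driven by E2F transcription factors, which the retinoblastoma family of pocket proteins holds in check until cyclin-dependent kinases release them. The mitosis wave comes later and is controlled by the DREAM complex, by B-MYB and by FOXM1, through promoter elements called CCAAT boxes and cell cycle homology regions (CHR). Type I interferons slow the division of many cell types, and fibroblast lines differ in how fast they cycle, so both lists report on how many cells of a culture are in cycle and where in the cycle they are. In RNA of a whole culture, fewer cells in a phase and less RNA per cell cannot be told apart.

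Levels are given as normalized intensity on a log2 scale, after background correction and quantile normalization, so that a step of 1 is a doubling of signal. The brightest probe of a gene stands for it, and levels of different genes are not compared because each probe has its own brightness. A difference was called when the adjusted p of limma's moderated test was below 0.05, with Benjamini-Hochberg adjustment over all 17268 features. Differences are log2 values ± their standard error, from 3 arrays against 3. Summed signal was 39160370 to 62338146 on 11 arrays and 21292305 on array 12, where 31.5% of probes were above background against 34.2% to 46.9% on the others. The arrays fell into sets of high background (arrays 1 to 6) and low background (arrays 7 to 12), to which no label refers and which hold the genotypes unevenly, with 4 of 6 Rictor+/+ arrays in the high set and 4 of 6 Rictor-/- arrays in the low set. In the high set array 3 is the only untreated and array 4 the only IFN-treated Rictor-/- array. In the low set array 9 is the only untreated and array 10 the only IFN-treated Rictor+/+ array. The single Rictor probe was close to background, above it on 1 of 3 arrays of IFN-treated Rictor-/- cells and on 2 of 3 in each other group, and its log2 difference between the untreated lines was 0.26 (adjusted p = 0.796). What part of the transcript the deletion removes is not given in the labels, so this probe does not check the genotype. IFN raised 10 of 10 measured interferon-induced check genes in both lines. Of 13 fibroblast markers 11 were above background on all 12 arrays, Lum on 5 and Postn on 1. Their summed linear level was 141087 to 176205 in untreated Rictor+/+ and 93238 to 121612 in untreated Rictor-/- cells. Of 7 macrophage markers 3 had a probe, Lyz2 above background on 0 arrays, Csf1r on 5 and Cd14 on 12, and their summed level was 289 to 401 in untreated Rictor+/+ and 849 to 1062 in untreated Rictor-/- cells. The higher sum came from Cd14, whose mean log2 level was 7.81 and 9.79, while Csf1r went from 6.53 to 5.94. Both sums move with genotype, as do the results below, and their part in them was not tested.

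S phase and mitosis genes took different positions in the 4 groups. For each array the median deviation of a list from each gene's mean over the 12 arrays was taken. For the S phase genes it was 0.37, 0.60 and 0.53 in untreated Rictor+/+ cells, -0.09, 0.35 and 0.06 with IFN, -1.18, -0.23 and -0.24 in untreated Rictor-/- cells and -0.08, -0.13 and -0.06 with IFN. The untreated Rictor+/+ arrays were the highest 3 of the 12, and array 3, of untreated Rictor-/- cells, was the lowest by a wide margin. For the mitosis genes the same measure was -0.09, 0.10 and -0.03 in untreated Rictor+/+ cells, -0.82, -0.49 and -0.33 with IFN, -0.46, 0.37 and 0.32 in untreated Rictor-/- cells and 0.24, 0.27 and 0.66 with IFN. Here the IFN-treated Rictor+/+ arrays were low, the IFN-treated Rictor-/- arrays were above all Rictor+/+ arrays, and the untreated Rictor-/- arrays spread from array 3 near the bottom to arrays 7 and 11 near the top. The S phase median minus the mitosis median was 0.39 to 0.83 on the 6 Rictor+/+ arrays and -0.73 to -0.31 on the 6 Rictor-/- arrays, so that each Rictor+/+ array had S phase genes above mitosis genes, on this scale of deviations, and each Rictor-/- array had them below. This held in both background sets. These medians describe lists and carry no test.

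**Figure D1:**
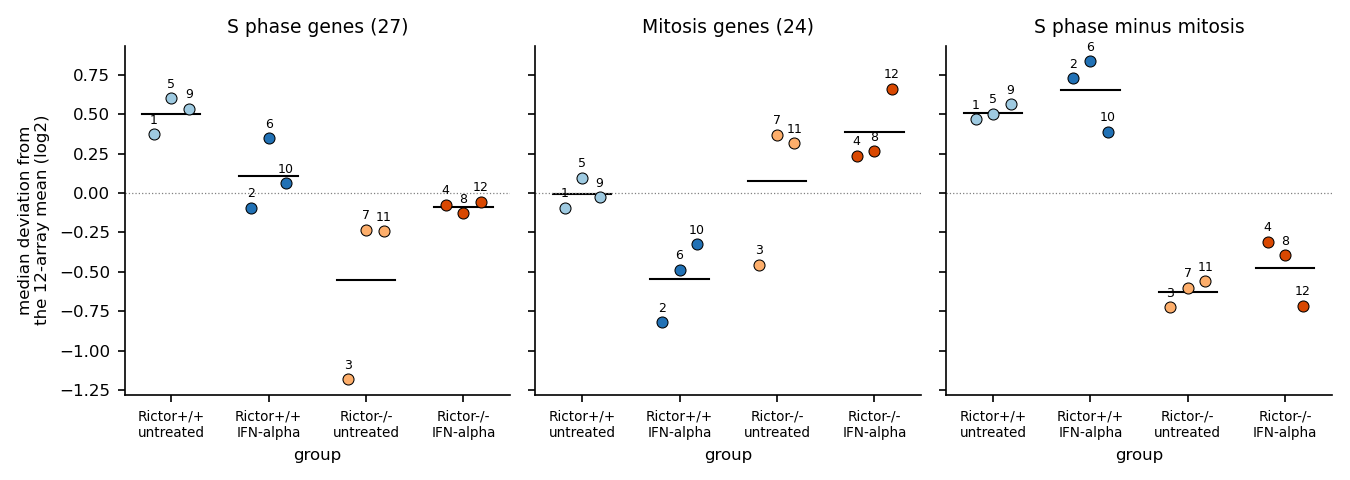
Median deviation of the 27 S phase genes, the 24 mitosis genes, and the difference of these medians, on each of 12 arrays (log2, y axis) by group (x axis); points are arrays with their numbers and lines are group means. In the right panel the 6 Rictor+/+ arrays lie at 0.39 to 0.83 and the 6 Rictor-/- arrays at -0.73 to -0.31.

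Single arrays stood apart within their groups. Array 3 had the lowest level of all 12 arrays for 21 of 27 S phase genes and for 6 of 24 mitosis genes. Array 2, of IFN-treated Rictor+/+ cells, had the lowest level for 15 of 24 mitosis genes, and array 12, the array of low total signal, had the highest for 13 of 24. The called counts and medians of the lists are therefore also given with single arrays left out. Counts of groups that did not overlap, and most values of single genes, are from all 12 arrays.

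**Figure D2:**
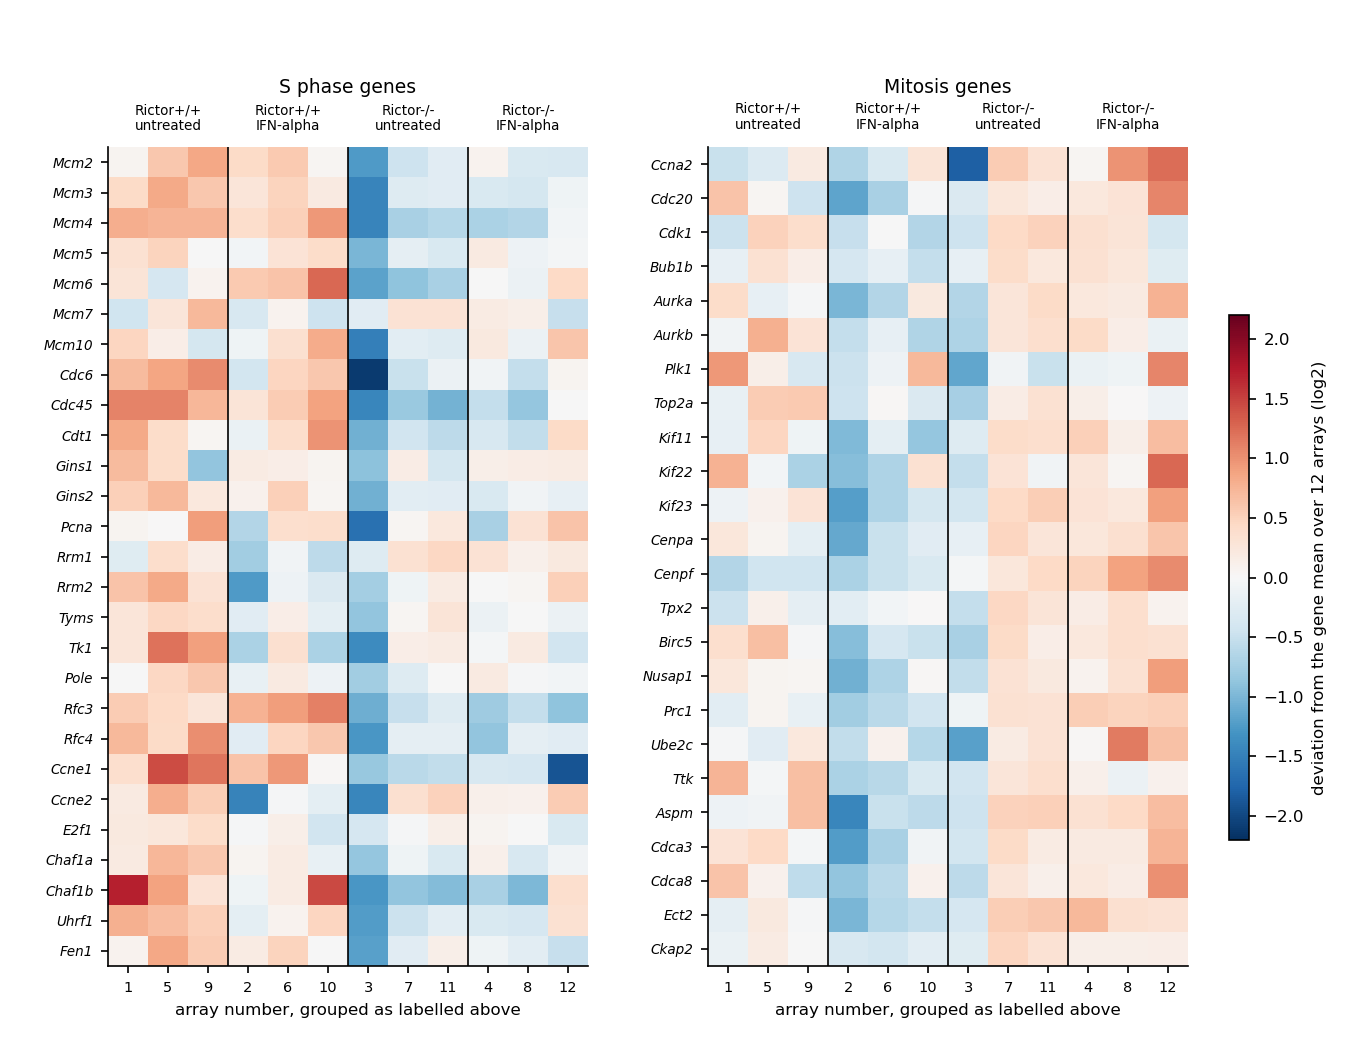
Deviation of each of the 51 genes from its own mean over the 12 arrays (colour, log2), with S phase genes on the left and mitosis genes on the right, genes in rows and arrays in columns by group. S phase genes are mostly above their mean on untreated Rictor+/+ arrays and below it on array 3, and mitosis genes are mostly below their mean on the IFN-treated Rictor+/+ arrays.

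The promoter sequences of the genes were compared next. The strings searched for belong to the factors and elements named above for these waves, so their presence in the lists is no independent support. RefSeq windows of 250 bases before to 50 after the transcription start (build GRCm38.p6) were at hand for 43 of 51 members, 22 of S phase and 21 of mitosis. They were searched on both strands for E2F-like strings (TTGGCGC or TTCCCGC or TTGCCGC or TTCGCGC), for the CCAAT box and for CHR-like strings (TTTGAA or TTCGAA). An E2F-like string was present in 14 of 22 S phase genes (63.6%) and 2 of 21 mitosis genes (9.52%), against 10.9% of all 27025 genes with a window and 18% of the 8199 of them that the array annotation names. A CCAAT box was present in 13 of 22 S phase genes (59.1%), in 19 of 21 mitosis genes (90.5%) and in 41.1% of all and 43.2% of the array's genes. CHR-like strings were found in 5 of 22 S phase genes (22.7%), in 19 of 21 mitosis genes (90.5%) and in 21.7% of all and 17.3% of the array's genes. CCAAT and CHR-like matches occurred together in 19 of 21 mitosis genes and 4 of 22 S phase genes, against 9.65% of all and 8.68% of the array's genes. In 4 of the 48 windows of members, those of Ect2, Cdca8 and Mcm7, matches of different kinds overlapped. A match describes letters and is neither a bound site nor a cause.

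**Figure D3:**
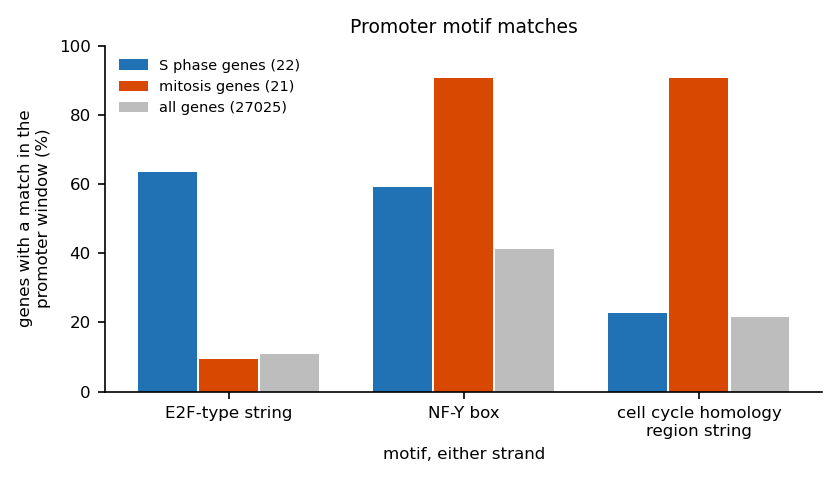
Share of genes (y axis, percent) whose promoter window holds an E2F-like string, a CCAAT box (the NF-Y box) or a CHR-like string on either strand (x axis), for 22 S phase genes, 21 mitosis genes and 27025 genes in all. E2F-like strings reach 63.6% in S phase genes, and CHR-like strings 90.5% in mitosis genes.

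The windows below belong to the members with a single window that had the smallest p among those called, 3 S phase genes lower in untreated Rictor-/- cells and 3 mitosis genes higher in IFN-treated Rictor-/- cells. They are shown 5′ to 3′ on the gene's strand, with matches to the searched strings, on either strand, in capitals.
Cdc45 (chr16:18811923-18812222, minus strand): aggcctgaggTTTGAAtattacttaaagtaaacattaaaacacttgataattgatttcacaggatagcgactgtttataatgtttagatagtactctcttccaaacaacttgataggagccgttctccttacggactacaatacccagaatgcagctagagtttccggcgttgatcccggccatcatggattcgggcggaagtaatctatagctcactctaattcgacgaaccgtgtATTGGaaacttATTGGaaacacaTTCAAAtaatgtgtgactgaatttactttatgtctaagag
Rfc3 (chr5:151651159-151651458, minus strand): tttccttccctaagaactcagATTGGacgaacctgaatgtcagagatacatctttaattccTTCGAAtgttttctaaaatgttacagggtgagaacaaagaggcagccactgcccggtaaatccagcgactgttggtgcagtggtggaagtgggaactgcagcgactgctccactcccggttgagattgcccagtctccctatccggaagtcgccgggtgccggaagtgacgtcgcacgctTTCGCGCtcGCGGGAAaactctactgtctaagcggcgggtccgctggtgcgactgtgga
Chaf1b (chr16:93883651-93883950, plus strand): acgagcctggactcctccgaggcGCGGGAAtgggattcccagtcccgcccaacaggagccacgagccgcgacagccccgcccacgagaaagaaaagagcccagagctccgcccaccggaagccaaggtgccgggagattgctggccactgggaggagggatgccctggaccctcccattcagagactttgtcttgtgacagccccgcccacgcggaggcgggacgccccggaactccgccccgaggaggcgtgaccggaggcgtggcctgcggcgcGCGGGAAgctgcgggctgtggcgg
Cenpf (chr1:189688037-189688336, minus strand): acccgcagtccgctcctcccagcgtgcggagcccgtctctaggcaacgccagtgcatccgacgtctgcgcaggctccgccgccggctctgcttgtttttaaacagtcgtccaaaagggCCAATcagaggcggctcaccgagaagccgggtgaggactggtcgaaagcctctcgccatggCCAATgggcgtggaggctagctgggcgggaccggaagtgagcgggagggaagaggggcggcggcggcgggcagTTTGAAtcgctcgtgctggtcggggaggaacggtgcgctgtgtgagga
Kif23 (chr9:61946750-61947049, minus strand): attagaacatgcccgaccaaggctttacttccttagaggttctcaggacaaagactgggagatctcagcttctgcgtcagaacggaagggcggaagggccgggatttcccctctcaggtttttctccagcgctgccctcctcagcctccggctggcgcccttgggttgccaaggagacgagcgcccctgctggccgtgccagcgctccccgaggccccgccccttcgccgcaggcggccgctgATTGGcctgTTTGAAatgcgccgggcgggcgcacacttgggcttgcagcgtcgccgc
Kif11 (chr19:37376132-37376431, plus strand): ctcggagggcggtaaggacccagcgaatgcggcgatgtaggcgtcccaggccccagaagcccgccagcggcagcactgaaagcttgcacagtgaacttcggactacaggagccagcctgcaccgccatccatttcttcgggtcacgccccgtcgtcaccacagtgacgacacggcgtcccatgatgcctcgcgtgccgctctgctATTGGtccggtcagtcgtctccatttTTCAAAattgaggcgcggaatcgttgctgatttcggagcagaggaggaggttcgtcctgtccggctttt
The Rfc3 and Chaf1b windows each hold 2 E2F-like strings, in Rfc3 both next to the start. Cdc45 has none in this window, where 2 CCAAT and 2 CHR-like matches lie. The 3 mitosis windows hold no E2F-like string and at least 1 CCAAT and 1 CHR-like match each, with the CHR-like string of Cenpf and Kif23 just behind the start and that of Kif11 just before it. Of the S phase genes called lower in untreated Rictor-/- cells 9 of 12 with a window had an E2F-like string, and of the other S phase genes 5 of 10.

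The first comparison set untreated Rictor-/- against untreated Rictor+/+ cells and asks how the lines differ without interferon. Of the 27 S phase genes 14 were lower in Rictor-/- cells and 0 higher, and the 3 largest differences among called genes were 4.21-fold for Cdc45, 3.99-fold for Chaf1b and 3.42-fold for Cdc6. Among all named genes 11.6% were called lower and 10.6% higher, and among all features 6.85% and 6.49%. The median log2 difference of the 27 genes was -0.93, beside 0.05 for all features, and 26 of 27 had a negative sign. The groups did not overlap, with Rictor-/- lower, for 18 of 27, against 23.8% of named genes. Of the 24 mitosis genes 1 was higher (Cenpf) and 0 lower, with a median of -0.05.

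**Figure D4:**
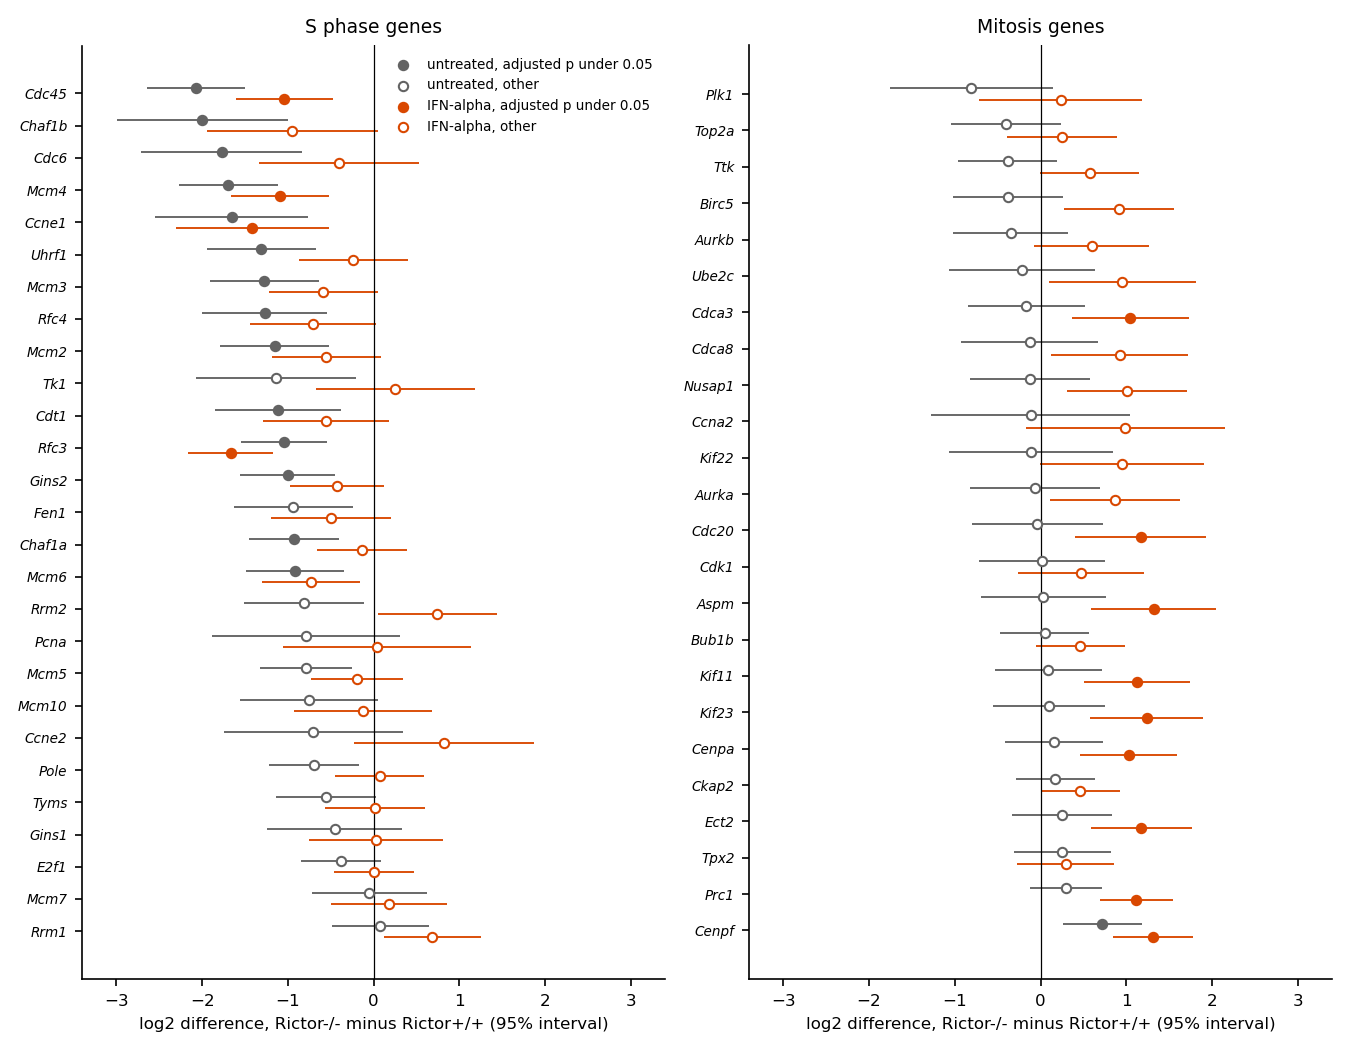
Log2 difference of Rictor-/- minus Rictor+/+ cells (x axis) with its 95% interval for each S phase gene (left) and mitosis gene (right), untreated in grey and IFN-treated in orange; filled points have an adjusted p below 0.05. Untreated S phase genes lie mostly left of 0, and IFN-treated mitosis genes all lie right of 0.

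The 6 MCM proteins form the ring-shaped helicase that unwinds DNA at the fork, and 4 of them were lower in untreated Rictor-/- cells. Mcm4 read 14.09, 14.06 and 14.05 in untreated and 13.69, 13.83 and 14.26 in IFN-treated Rictor+/+ cells, and 11.86, 12.59 and 12.68 in untreated and 12.60, 12.66 and 13.24 in IFN-treated Rictor-/- cells. Its 6 Rictor-/- levels were all below its 6 Rictor+/+ levels, and the untreated difference was 3.23-fold (log2 -1.69 ± 0.26, adjusted p = 0.000773). Mcm3 read 9.89, 10.31 and 10.07 in untreated and 9.75, 9.97 and 9.68 in IFN-treated Rictor+/+ cells, and 8.02, 9.20 and 9.23 in untreated and 9.15, 9.09 and 9.39 in IFN-treated Rictor-/- cells. All Rictor-/- arrays were again below all Rictor+/+ arrays, with array 3 far below the rest, and the untreated difference was 2.42-fold (log2 -1.27 ± 0.29, adjusted p = 0.0112). Mcm2 read 11.28, 11.82 and 12.06 in untreated and 11.64, 11.78 and 11.26 in IFN-treated Rictor+/+ cells, and 9.97, 10.76 and 10.97 in untreated and 11.29, 10.88 and 10.87 in IFN-treated Rictor-/- cells. The untreated lines did not overlap and differed 2.22-fold (log2 -1.15 ± 0.29, adjusted p = 0.0199), whereas with IFN array 4 lay within the Rictor+/+ range. Mcm6 was 1.89-fold lower (log2 -0.92 ± 0.26, adjusted p = 0.035), and its levels are given with the interferon results. Mcm5 missed the threshold, although its untreated groups did not overlap (log2 -0.78 ± 0.25, adjusted p = 0.0555). Mcm7, the sixth subunit, had a log2 difference of -0.05 ± 0.31 (adjusted p = 0.947), and its untreated Rictor-/- levels of 11.22, 11.79 and 11.78 lay inside the untreated Rictor+/+ range of 11.02 to 12.18.

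The next group licenses origins and fires them, and 4 of its 6 genes were lower in untreated Rictor-/- cells. CDC45 joins the MCM ring and the GINS complex to make the active helicase. Cdc45 read 10.91, 10.91 and 10.55 in untreated and 10.10, 10.37 and 10.70 in IFN-treated Rictor+/+ cells, and 8.37, 8.99 and 8.78 in untreated and 9.28, 8.97 and 9.80 in IFN-treated Rictor-/- cells. The untreated lines lay more than 1.5 log2 units apart, and the difference was -2.07 ± 0.26 (adjusted p = 0.000135). It was called with each single array left out. Within the arrays of high background, where array 3 is the only untreated Rictor-/- array, it was -2.53, and within those of low background -1.66. CDC6 loads the MCM ring onto origins together with CDT1. Cdc6 read 10.23, 10.40 and 10.58 in untreated and 9.14, 10.01 and 10.14 in IFN-treated Rictor+/+ cells, and 7.44, 9.05 and 9.40 in untreated and 9.46, 9.02 and 9.59 in IFN-treated Rictor-/- cells. Array 3 was by far the lowest, and the difference of -1.77 ± 0.43 (adjusted p = 0.0154) moved to -1.18 without that array. Gins2, a GINS subunit, read 11.15, 11.34 and 10.86 in untreated and 10.73, 11.16 and 10.68 in IFN-treated Rictor+/+ cells, and 9.58, 10.40 and 10.38 in untreated and 10.29, 10.55 and 10.44 in IFN-treated Rictor-/- cells. The untreated lines did not overlap, and they differed by -1.00 ± 0.25 (adjusted p = 0.0193). Cdt1 differed by -1.12 ± 0.34 (adjusted p = 0.047). Mcm10, which helps to activate the helicase, and Gins1 were not called, with log2 differences of -0.75 and -0.46.

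At the fork, replication factor C loads the sliding clamp PCNA, polymerase epsilon (Pole) extends the leading strand and FEN1 trims the lagging strand. Of these 5 genes Rfc3 and Rfc4 were lower. Rfc3 read 8.74, 8.62 and 8.45 in untreated and 8.95, 9.09 and 9.29 in IFN-treated Rictor+/+ cells, and 7.10, 7.66 and 7.90 in untreated and 7.39, 7.65 and 7.29 in IFN-treated Rictor-/- cells. All 6 Rictor-/- arrays were below all 6 Rictor+/+ arrays, and the untreated difference was 2.07-fold (log2 -1.05 ± 0.23, adjusted p = 0.00844). Rfc4 was 2.41-fold lower (log2 -1.27 ± 0.34, adjusted p = 0.0243). Pcna, Pole and Fen1 had log2 differences of -0.79, -0.70 and -0.93 that were not called (adjusted p = 0.366, 0.0783 and 0.0776).

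Nucleosome assembly and maintenance methylation behind the fork were the role in which each gene was called. CAF-1, of which Chaf1a and Chaf1b are subunits, places histones on new DNA, and UHRF1 brings the maintenance methyltransferase to it. Chaf1b read 11.65, 10.83 and 10.26 in untreated and 9.85, 10.12 and 11.40 in IFN-treated Rictor+/+ cells, and 8.67, 9.08 and 8.99 in untreated and 9.24, 8.97 and 10.33 in IFN-treated Rictor-/- cells. The untreated lines did not overlap, while within every group but the untreated Rictor-/- one the arrays spread by more than 1 log2 unit, and the difference was -2.00 ± 0.46 (adjusted p = 0.0111). Uhrf1 read 13.85, 13.74 and 13.58 in untreated and 12.85, 13.14 and 13.53 in IFN-treated Rictor+/+ cells, and 11.82, 12.59 and 12.83 in untreated and 12.72, 12.69 and 13.40 in IFN-treated Rictor-/- cells. Its untreated lines did not overlap and differed 2.48-fold (log2 -1.31 ± 0.29, adjusted p = 0.00957). Chaf1a read 10.35, 10.88 and 10.75 in untreated and 10.22, 10.34 and 9.99 in IFN-treated Rictor+/+ cells, and 9.30, 10.07 and 9.83 in untreated and 10.27, 9.80 and 10.07 in IFN-treated Rictor-/- cells. The difference was -0.93 ± 0.24 (adjusted p = 0.0233), with the untreated groups apart.

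Cyclin E1 drives entry into S phase with CDK2. Ccne1 read 8.51, 9.58 and 9.31 in untreated and 8.76, 9.10 and 8.16 in IFN-treated Rictor+/+ cells, and 7.29, 7.55 and 7.59 in untreated and 7.79, 7.76 and 6.23 in IFN-treated Rictor-/- cells. The untreated Rictor-/- arrays were close together and below all Rictor+/+ arrays, and array 12, with 6.23, was the only array on which the gene was not above background. The untreated difference was 3.15-fold (log2 -1.66 ± 0.41, adjusted p = 0.0174). Ccne2, its paralog, and E2f1, an activator of the S phase wave and itself a target of it, were not called, with log2 differences of -0.70 ± 0.48 (adjusted p = 0.404) and -0.38 ± 0.22 (adjusted p = 0.305). Of the 4 genes for nucleotide supply 0 were called by their standing probes. Rrm1 and Rrm2, the subunits of ribonucleotide reductase, had log2 differences of 0.08 and -0.81, Tyms, which makes thymidylate, one of -0.55 and Tk1, which salvages thymidine, one of -1.14 (adjusted p = 0.894, 0.125, 0.213 and 0.107). The intervals of Rrm2 (-1.51 to -0.11) and Tk1 (-2.07 to -0.21) include differences as large as those called elsewhere.

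How many S phase genes were called in untreated cells rested on single arrays. The count of 14 became 7 without array 3, 8 without array 5 and 9 without array 9. The high background set holds 1 untreated Rictor-/- array, which is array 3, and the low set holds 1 untreated Rictor+/+ array. The median was -1.67 within the high set and -0.74 within the low set, -0.71 without array 3, and the 15 called members, Cenpf among them, kept their sign in each fit that measured them. The calls of Cdc45, Mcm4, Rfc3, Uhrf1 and Chaf1b held without any 1 of the 12 arrays, and with the background set as a block all 15 held. With each array left out in turn, Cdt1 was called in 4, Cenpf in 5 and Mcm6 in 7 of 12 fits. Without array 3 the calls of Mcm2, Mcm6, Cdt1, Gins2, Rfc4, Chaf1a and Ccne1 were lost.

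Mitosis genes of untreated cells showed 1 called difference. Cenpf, a kinetochore protein gene, read 6.46, 6.66 and 6.65 in untreated and 6.40, 6.60 and 6.76 in IFN-treated Rictor+/+ cells, and 7.05, 7.35 and 7.54 in untreated and 7.59, 7.98 and 8.13 in IFN-treated Rictor-/- cells. Each Rictor-/- array was above each Rictor+/+ array, and the untreated lines differed 1.65-fold (log2 0.72 ± 0.21, adjusted p = 0.041). On array 1 it was not above background. The call was made in 12 of 29 other fits, and the difference was positive in each of them, from 0.28 to 0.85. For the other 23 mitosis genes the log2 differences ran from -0.81 ± 0.44 (adjusted p = 0.272) for Plk1, a kinase of mitotic entry, to 0.30 ± 0.19 (adjusted p = 0.377) for Prc1. Plk1 read 12.73, 11.91 and 11.42 in untreated and 11.30, 11.67 and 12.48 in IFN-treated Rictor+/+ cells, and 10.64, 11.70 and 11.29 in untreated and 11.63, 11.69 and 12.85 in IFN-treated Rictor-/- cells. The untreated lines overlapped, and the sign of Plk1 changed between the background sets (-1.68 in the high set and 0.08 in the low set). The median of the 24 genes likewise went from -0.67 in the high set, where array 3 is the only untreated Rictor-/- array, to 0.33 in the low set. Without array 3 the median was 0.27.

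The second comparison set the lines against each other when both were treated with IFN. Of the 24 mitosis genes 9 were higher in IFN-treated Rictor-/- cells than in IFN-treated Rictor+/+ cells and 0 lower, against 11.4% of named genes called higher and 15.1% lower, and 7.33% and 8.95% of all features. The 24 had a median log2 difference of 0.95, beside 0.04 for all features, and 24 of 24 were positive. For 16 of 24 the groups did not overlap, with Rictor-/- higher, against 19% of named genes. Of the 27 S phase genes 4 were lower and 0 higher, with a median of -0.24. The count of 4 is close to the 15.1% of named genes called lower, so it does not stand out from them.

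Among the motors and spindle proteins 4 of 8 were higher. Prc1, which bundles the microtubules of the central spindle, read 12.59, 12.87 and 12.64 in untreated and 12.04, 12.21 and 12.39 in IFN-treated Rictor+/+ cells, and 12.71, 13.16 and 13.13 in untreated and 13.36, 13.31 and 13.34 in IFN-treated Rictor-/- cells. The IFN-treated Rictor-/- arrays lay close together and above all other arrays, and the difference was 2.17-fold (log2 1.12 ± 0.19, adjusted p = 0.00146). Kif23, a motor subunit of the centralspindlin complex, read 12.45, 12.66 and 12.86 in untreated and 11.36, 11.88 and 12.17 in IFN-treated Rictor+/+ cells, and 12.16, 13.01 and 13.11 in untreated and 12.86, 12.80 and 13.46 in IFN-treated Rictor-/- cells. Array 2 was the lowest, and the IFN-treated lines differed 2.36-fold (log2 1.24 ± 0.30, adjusted p = 0.0134). Kif11 encodes the motor that pushes spindle poles apart and read 9.30, 9.96 and 9.39 in untreated and 8.51, 9.27 and 8.62 in IFN-treated Rictor+/+ cells, and 9.19, 9.88 and 9.85 in untreated and 10.00, 9.61 and 10.16 in IFN-treated Rictor-/- cells. All 3 IFN-treated Rictor-/- levels were above the IFN-treated Rictor+/+ range (log2 1.12 ± 0.29, adjusted p = 0.0166). Aspm, a spindle pole protein gene, read 8.57, 8.60 and 9.35 in untreated and 7.25, 8.20 and 8.10 in IFN-treated Rictor+/+ cells, and 8.22, 9.20 and 9.21 in untreated and 9.02, 9.13 and 9.37 in IFN-treated Rictor-/- cells. The same order held, with a difference of 2.50-fold (log2 1.32 ± 0.34, adjusted p = 0.017). Nusap1 and Kif22 had log2 differences of 1.01 and 0.95 and were not called (adjusted p = 0.0509 and 0.179), and those of Tpx2 and Ckap2 were 0.29 and 0.47.

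At the centromere 2 of 5 genes were higher. Cenpf, whose levels are given above, differed 2.48-fold in IFN-treated cells (log2 1.31 ± 0.21, adjusted p = 0.00086). Cenpa, the histone H3 variant of centromeres, read 13.98, 13.80 and 13.52 in untreated and 12.60, 13.25 and 13.49 in IFN-treated Rictor+/+ cells, and 13.56, 14.22 and 14.00 in untreated and 13.99, 14.08 and 14.35 in IFN-treated Rictor-/- cells. The IFN-treated lines did not overlap and differed 2.04-fold (log2 1.03 ± 0.26, adjusted p = 0.0172). Birc5 and Cdca8, both subunits of the chromosomal passenger complex, had log2 differences of 0.91 and 0.93 (adjusted p = 0.0528 and 0.115), and Top2a, which untangles chromosomes, one of 0.25.

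Both genes of the role named cytokinesis and mitotic entry were higher. Ect2, the exchange factor that sets the cleavage furrow, read 8.25, 8.66 and 8.41 in untreated and 7.44, 7.82 and 7.92 in IFN-treated Rictor+/+ cells, and 8.07, 8.98 and 9.03 in untreated and 9.15, 8.80 and 8.76 in IFN-treated Rictor-/- cells. Untreated arrays of the lines overlapped, whereas the IFN-treated ones did not (log2 1.18 ± 0.27, adjusted p = 0.00936). Cdca3, a substrate of the anaphase-promoting complex known as a trigger of mitotic entry, read 12.27, 12.41 and 11.92 in untreated and 10.73, 11.26 and 11.90 in IFN-treated Rictor+/+ cells, and 11.56, 12.38 and 12.16 in untreated and 12.16, 12.16 and 12.71 in IFN-treated Rictor-/- cells. The IFN-treated difference was 1.05 ± 0.31 (adjusted p = 0.0378). In the checkpoint and anaphase group Cdc20, which activates the anaphase-promoting complex, was called with a log2 difference of 1.17 ± 0.35 (adjusted p = 0.0391), and it is named here because it is the ninth called gene, after its values were seen. Bub1b and Ttk, kinases of the spindle checkpoint, and Ube2c, which passes ubiquitin on, had log2 differences of 0.46, 0.57 and 0.95. Of 5 genes for kinases and cyclin A 0 were called, with log2 differences from 0.24 for Plk1 to 0.99 for Ccna2.

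The S phase genes lower in IFN-treated Rictor-/- cells were Rfc3, Mcm4, Cdc45 and Ccne1, each of which was also lower in untreated cells. Their log2 differences were -1.67 ± 0.23 (adjusted p = 0.000234) for Rfc3, -1.09 ± 0.26 (adjusted p = 0.0126) for Mcm4, -1.04 ± 0.26 (adjusted p = 0.0161) for Cdc45 and -1.42 ± 0.41 (adjusted p = 0.0333) for Ccne1. The Rfc3 call held without any 1 array, whereas the count of 4 was 2 without array 10 and 2 without array 4, 1 in the high and 0 in the low background set, with medians of -0.27 and -0.39. The genes of ribonucleotide reductase had the other sign, with log2 differences of 0.69 for Rrm1 and 0.75 for Rrm2 that were not called (adjusted p = 0.0991 and 0.146) on the standing probes and groups that did not overlap, as for Ccne2 at 0.82 (adjusted p = 0.294).

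Arrays 2 and 12 weighed on the mitosis result. The count of 9 was 3 without array 2, 5 without array 12, 12 without array 3, 7 with the background set as a block and 0 within each set or with median scaling, while the median of 0.95 was 0.75 without array 2, 0.95 in the high set, 0.63 in the low set and 0.54 with median scaling. The calls of Cenpf, Prc1 and Ect2 held without any 1 array. Those of Cenpa, Kif23, Cdc20, Cdca3, Kif11 and Aspm were lost without array 2. Without array 12 those of Cenpa, Cdc20, Cdca3 and Kif11 were lost. With each array left out in turn, Cdc20 was called in 5 and Cdca3 in 6 of 12 fits. The 13 members called with IFN kept their sign in each fit that measured them, with 10 of 13 still called with the background set as a block.

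**Figure D5:**
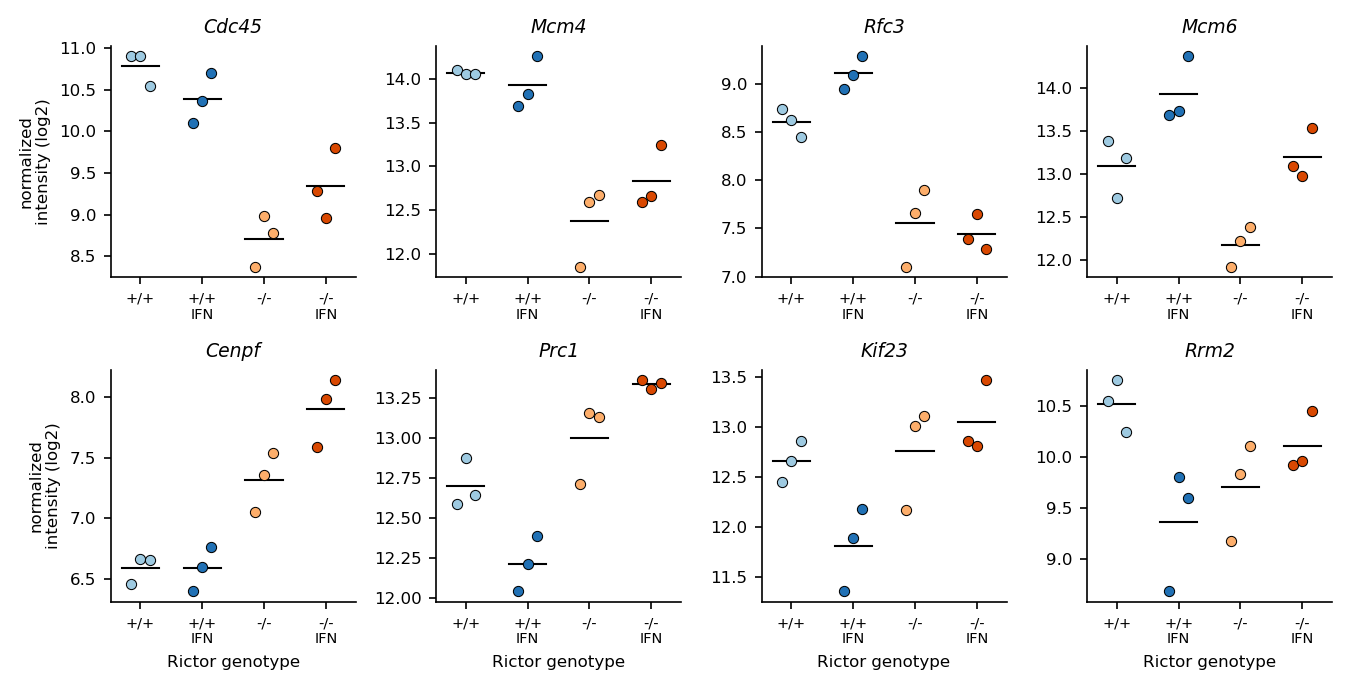
Normalized intensity (log2, y axis) of 8 members on the 12 arrays, by Rictor genotype without and with IFN (x axis); points are arrays, in order of array number within a group, and lines are group means. Rfc3, Mcm4 and Cdc45 are lower on every Rictor-/- array than on any Rictor+/+ array, the IFN-treated arrays of Mcm6 lie above the untreated ones in each line, and Prc1 is lowest on IFN-treated Rictor+/+ arrays and highest on IFN-treated Rictor-/- arrays.

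The response of Rictor+/+ cells to IFN was the next comparison. It holds the same arrays as the genotype comparisons above, so their values are not independent of one another. Of 24 mitosis genes 0 were called, against 2.45% of all features called in either direction, and 10 had an unadjusted p below 0.05 in limma's test, against 12.6% of named genes. The median log2 difference was -0.56, beside -0.05 for all features, with 23 of 24 negative. For 12 of 24 the IFN-treated arrays were all below the untreated ones, against 8.3% of named genes. The smallest p were those of Ttk, Birc5 and Aspm. Ttk read 7.77, 6.97 and 7.68 in untreated and 6.33, 6.40 and 6.68 in IFN-treated Rictor+/+ cells, and 6.60, 7.28 and 7.38 in untreated and 7.12, 6.89 and 7.11 in IFN-treated Rictor-/- cells. The Rictor+/+ groups did not overlap, and the difference was -1.00 ± 0.27 (adjusted p = 0.0842). Birc5, also known as survivin, read 12.11, 12.42 and 11.72 in untreated and 10.81, 11.39 and 11.26 in IFN-treated Rictor+/+ cells, and 11.04, 12.18 and 11.90 in untreated and 11.99, 12.13 and 12.09 in IFN-treated Rictor-/- cells. Its difference was -0.93 ± 0.29 (adjusted p = 0.197), and that of Aspm, whose levels are above, was -0.99 ± 0.34 (adjusted p = 0.258). With array weights, which give arrays that fit the model poorly less weight, 6 mitosis genes were called lower: Prc1, Kif23, Cdca3, Birc5, Aurkb and Ect2. Ttk was called without array 5 (log2 -1.25, adjusted p = 0.0327) and without array 3 (log2 -1.00, adjusted p = 0.0483), with adjusted p from 0.0327 to 0.568 over all fits. The median was -0.83 in the arrays of high and -0.24 in those of low background, and it was -0.44 without array 2.

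Of the 27 S phase genes 0 were called in Rictor+/+ cells and 6 had an unadjusted p below 0.05, beside the same 12.6% of named genes. Their median log2 difference was -0.39, with 23 of 27 negative, and it was -0.25 without array 2. For 7 of 27 the groups did not overlap in that direction, against 8.3% of named genes. Rrm2 read 10.54, 10.75 and 10.25 in untreated and 8.68, 9.80 and 9.60 in IFN-treated Rictor+/+ cells, and 9.17, 9.83 and 10.10 in untreated and 9.92, 9.96 and 10.44 in IFN-treated Rictor-/- cells. Array 2 was the lowest of all, and the difference was -1.15 ± 0.32 (adjusted p = 0.113). It was called with the deposited log2 values (-0.93, adjusted p = 0.0442) and with array weights (-1.18, adjusted p = 0.0161), and its adjusted p over all fits ran from 0.0161 to 0.643. Tk1 read 11.53, 12.46 and 12.18 in untreated and 10.58, 11.62 and 10.57 in IFN-treated Rictor+/+ cells, and 9.89, 11.42 and 11.45 in untreated and 11.23, 11.46 and 10.84 in IFN-treated Rictor-/- cells. The groups overlapped, with a difference of -1.13 ± 0.43 (adjusted p = 0.351).

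Mcm6 and Rfc3 were the S phase genes whose IFN-treated Rictor+/+ arrays were all above the untreated ones. Mcm6 read 13.38, 12.72 and 13.18 in untreated and 13.68, 13.73 and 14.37 in IFN-treated Rictor+/+ cells, and 11.92, 12.22 and 12.38 in untreated and 13.09, 12.97 and 13.53 in IFN-treated Rictor-/- cells. In each line the 3 IFN-treated arrays were above the 3 untreated ones, with log2 differences of 0.83 ± 0.26 (adjusted p = 0.19) in Rictor+/+ and 1.03 ± 0.26 (adjusted p = 0.177) in Rictor-/- cells. All 4 probes of Mcm6 gave positive differences, between 0.69 and 1.03 in the Rictor+/+ line and between 0.20 and 1.03 in the Rictor-/- line, and 1 of them was called in Rictor+/+ cells when all kept probes were tested (0.98, adjusted p = 0.0452). Mcm6 was called in Rictor-/- cells with the deposited log2 values (1.16, adjusted p = 0.0446), and with array weights in both lines (0.94 and 0.83, adjusted p = 0.008 and 0.0462), while its adjusted p over all fits reached 0.626 and 1. Rfc3, whose levels are above, had a log2 difference of 0.51 ± 0.23 (adjusted p = 0.525) in Rictor+/+ cells.

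In Rictor-/- cells IFN gave 0 calls among the 27 S phase and 0 among the 24 mitosis genes, against 0.834% of all features called. An unadjusted p below 0.05 was found for 3 S phase genes and 1 mitosis gene, against 7.24% of named genes, so that neither count stands out from the background. The median log2 difference was 0.41 for S phase genes, with 23 of 27 positive, and 0.30 for mitosis genes, with 20 of 24 positive. The IFN-treated arrays were all above the untreated ones for 3 S phase and 2 mitosis genes, against 6.14% of named genes. After Mcm6 the smallest p in the S phase list were those of Mcm10 and Cdc45. Mcm10 read 11.57, 11.23 and 10.70 in untreated and 10.99, 11.44 and 11.91 in IFN-treated Rictor+/+ cells, and 9.59, 10.86 and 10.80 in untreated and 11.31, 10.96 and 11.70 in IFN-treated Rictor-/- cells. Array 3 was the lowest, and the difference was 0.91 ± 0.37 (adjusted p = 0.699), beside 0.64 ± 0.26 (adjusted p = 0.714) for Cdc45. In the mitosis list Cenpf differed by 0.59 ± 0.21 (adjusted p = 0.614). Ube2c read 8.05, 7.83 and 8.30 in untreated and 7.54, 8.18 and 7.46 in IFN-treated Rictor+/+ cells, and 6.88, 8.26 and 8.39 in untreated and 8.11, 9.21 and 8.72 in IFN-treated Rictor-/- cells. Its groups overlapped, with a difference of 0.84 ± 0.39 (adjusted p = 0.769). Ccna2, the cyclin of S phase and early mitosis, read 6.73, 6.93 and 7.43 in untreated and 6.56, 6.89 and 7.51 in IFN-treated Rictor+/+ cells, and 5.43, 7.78 and 7.54 in untreated and 7.26, 8.21 and 8.46 in IFN-treated Rictor-/- cells. On array 3 it was not above background, and the difference was 1.06 ± 0.53 (adjusted p = 0.785). These medians rested on array 3: without it they were 0.10 for S phase and 0.04 for mitosis genes, and without arrays 3 and 12 they were -0.0034 and -0.05, a choice made after seeing the data. Without arrays 3 and 12 the log2 differences were 0.73 for Mcm6, 0.31 for Mcm10 and 0.24 for Cdc45. For Cenpf, Ube2c and Ccna2 they were then 0.34, 0.33 and 0.08.

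The test of whether the lines respond differently is the difference of responses, Rictor-/- minus Rictor+/+, which is also the difference between the genotype comparisons with and without IFN. It was called for 0 of 27 S phase genes and 0 of 24 mitosis genes, against 0.382% of all features called. An unadjusted p below 0.05 in limma's test was found for 8 of the S phase and 11 of the mitosis genes, against 6.83% of named genes. The median log2 difference of responses was 0.60 for S phase genes and 0.99 for mitosis genes, with 24 of 24 mitosis genes positive. For Rrm2 it was 1.56 ± 0.46 (adjusted p = 0.42), for Cdc45 1.03 ± 0.37 (adjusted p = 0.722) and for Uhrf1 1.07 ± 0.42 (adjusted p = 0.81). In the mitosis list it was 1.29 ± 0.42 (adjusted p = 0.579) for Birc5, 0.82 ± 0.28 (adjusted p = 0.618) for Prc1 and 1.21 ± 0.44 (adjusted p = 0.742) for Cdca3. Prc1 lay apart in both lines, with IFN-treated arrays all below the untreated ones in Rictor+/+ cells (log2 -0.49) and all above them in Rictor-/- cells (log2 0.34). No member was thus shown to respond differently in the lines, and no S phase gene was shown to differ more between untreated lines than between IFN-treated ones. The medians were 0.31 and 0.69 without array 3, 1.21 and 1.63 in the high and 0.40 and 0.41 in the low background set. Array 3 is the only untreated Rictor-/- array of the high set.

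Members with several probes allow a check of single probes. In untreated cells 14 of 15 second probes of S phase genes had the sign of the standing probe in the genotype comparison. Both second probes of Mcm4 exceeded background on just 1 of 3 arrays of untreated Rictor-/- cells and had passed the filter through Rictor+/+ arrays. Their differences are therefore not given. The count of 15 second probes includes them, and for them the sign is no check. All 3 probes of Gins2, above background on all 12 arrays, were called lower, at -1.00, -1.16 and -1.57. A second probe of Tyms was called lower as well (log2 -1.02, adjusted p = 0.0255), unlike its standing probe. For mitosis genes in untreated cells 8 of 14 second probes had the sign of the standing probe, with a median of 0.24 where the standing probes had -0.04, and 1 was called. With IFN 13 of 14 second probes of mitosis genes had the sign of the standing probe, and 7 of 8 where it was called. All 4 probes of Cdc20 were called higher, from 1.17 to 1.36. The exception was Kif23, where 3 probes gave 0.75, 1.24 and 1.32 and the fourth gave -0.46, and the mean of its probes was not called (log2 0.71, adjusted p = 0.0942). The second probe of Cenpa was the one called in untreated cells (1.31, adjusted p = 0.0122), where the standing one gave 0.16, and it gave 1.65 with IFN. The second probe of Rrm1 was called higher in IFN-treated Rictor-/- cells (0.95, adjusted p = 0.0169), where the standing one gave 0.69 and was not called.

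Genes of the same pathways outside the list of members were counted in the same fit. Of 60 other replication genes 45 were measured, and 11 were lower in untreated Rictor-/- cells and 0 higher, with a median log2 difference of -0.64. Among all named genes 11.6% were called lower and 10.6% higher there. The smallest p were those of Msh6, a mismatch repair gene (log2 -1.44, adjusted p = 0.00131), Timeless, of the fork protection complex (log2 -1.34, adjusted p = 0.00288), and Rpa1, which coats single-stranded DNA (log2 -1.14, adjusted p = 0.0166). With IFN 1 of the 45 was lower and 2 were higher, against 15.1% and 11.4% of named genes. Of 70 other mitosis genes 44 were measured, and 2 were higher in untreated Rictor-/- cells and 10 with IFN, with 0 lower in either. Their median log2 difference was -0.25 untreated, with 32 of 44 negative, and 0.55 with IFN, with 40 of 44 positive. The shares of named genes called higher were 10.6% untreated and 11.4% with IFN. With IFN the smallest p were those of Cdc25c, the phosphatase that activates CDK1 (log2 2.26, adjusted p = 4.91e-05), Cenpp, of the centromere (log2 1.33, adjusted p = 0.000627), and Anln, the actin-binding protein of the cleavage furrow (log2 1.48, adjusted p = 0.000926). IFN itself gave 0 calls in both of these lists and both lines, where 5 and 13 genes in Rictor+/+ and 2 and 3 in Rictor-/- cells had an unadjusted p below 0.05, against 12.6% and 7.24% of named genes. Of these 4 counts the one above the share of named genes is that of mitosis genes in Rictor+/+ cells, 13 of 44.

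Upstream of the S phase wave stand the D cyclins, the pocket proteins and their partners, of which 13 of 19 were measured. Ccnd1, cyclin D1, read 13.16, 13.60 and 12.95 in untreated and 12.91, 13.47 and 13.05 in IFN-treated Rictor+/+ cells, and 14.47, 14.45 and 14.37 in untreated and 14.76, 14.48 and 14.37 in IFN-treated Rictor-/- cells. All Rictor-/- levels were above all Rictor+/+ levels, with log2 differences of 1.20 untreated (adjusted p = 0.00327) and 1.40 with IFN (adjusted p = 0.00086). Rb1, the retinoblastoma gene, read 8.90, 8.04 and 8.39 in untreated and 8.25, 8.16 and 8.53 in IFN-treated Rictor+/+ cells, and 9.70, 9.60 and 9.74 in untreated and 9.57, 9.36 and 9.77 in IFN-treated Rictor-/- cells. It was likewise higher in each line comparison, by 1.23 untreated (adjusted p = 0.00324) and 1.25 with IFN (adjusted p = 0.00242). Rbbp4, a histone-binding subunit shared by DREAM and CAF-1, read 9.61, 8.62 and 9.14 in untreated and 10.26, 10.50 and 10.25 in IFN-treated Rictor+/+ cells, and 7.52, 8.46 and 8.72 in untreated and 10.20, 10.18 and 10.12 in IFN-treated Rictor-/- cells. It rose with IFN in Rictor-/- cells (log2 1.93, adjusted p = 0.00571), and in Rictor+/+ cells its difference was 1.21 (adjusted p = 0.0719). The other 10 measured genes of this list were called in no comparison. Called higher in Rictor-/- cells were thus 2 of 13 untreated and 2 of 13 with IFN, beside 10.6% and 11.4% of named genes. Neither count stands out from these shares. The median log2 difference of the 13 genes was 0.31 untreated and 0.19 with IFN. For IFN itself 1 of 13 was called in Rictor-/- and 0 in Rictor+/+ cells, beside 0.834% and 2.45% of all features.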

How the data were processed

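BeadStudio was used upstream, per the submitters' processing notes, with no version given there. The main analysis used the deposited bead intensity of 45281 probes on 12 arrays (linear, not background-subtracted, per the file header and the values). A deposited log2 table of 17003 probes, normalized between arrays by the authors in a way not given in the sources used here, served as an alternative. Its array medians were 8.72 to 8.97, and its values correlated with the log2 intensity of the same array at 0.995 on array 12 and at 0.998 or more on the others, which fixes scale and direction. How it was centred is not known.

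Background was taken per array as the mode of the log2 signals, with the spread of the signals below it. Signals were corrected by normexp (offset 16), quantile normalized and put on a log2 scale. Probes above background (upper tail probability 0.01) on at least 3 arrays were kept, 20865 in all, and the brightest kept probe stood for a gene. limma 3.58.1 in R 4.3.3 fitted 1 mean per group over all 12 arrays, with empirical Bayes moderation and Benjamini-Hochberg adjustment over 17268 features. The limma step was tested on simulated log2 values, and the steps before it were not. Gene symbols came from GEO's platform annotation, in which 14461 probes name 1 gene and 5 several, and the latter were not named. Promoter sequences are RefSeq's (GRCm38.p6). The members and gene lists were chosen with earlier results of these data known. Values on all 12 arrays are given for members called in a comparison (for more than 12, those 12 with the smallest p) and for the 3 members with the smallest p in each list and comparison with fewer calls. The alternatives were other background corrections, scalings, filters, probe rules and moderation, array weights, the background sets as a block or apart, the compared groups alone, and each array left out.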

Additional observations from a re-analysis of the deposited data

How the results depend on the processing

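No paired analysis was possible because no array number is shared between groups and no label ties arrays across them. The numbers run in 3 series of 4 (1 to 4, 5 to 8, 9 to 12) with 1 array of each group, and with these series as a block, chosen after seeing the data and a hint from the numbers rather than the design, the genotype counts were 14 and 1 (S phase and mitosis) untreated and 5 and 10 with IFN, and IFN counts were 0. With the background set as a block they were 15 and 1, 5 and 7, and 0. For the single members named, 1178 values under alternative settings kept their direction and their side of the threshold, 119 fell short of it, 9 passed it and 2 reversed in sign, Prc1 in untreated cells within the high background set (-0.0202) and Plk1 in untreated cells within the low set (0.0775). The count of called S phase genes in untreated Rictor-/- against Rictor+/+ cells (14) was 7 with median scaling, 9 in the high set, 0 in the low set, 8 without arrays 3 and 12 (chosen after seeing the data) and 7 to 14 with 1 array left out, and its median ran from -1.13 to -0.71 with 1 array left out and was -1.67 in the high set. The count for mitosis genes there (1) was 0 with no background correction, normexp estimated from each array, an offset of 50, median scaling, cyclic loess, the deposited log2 values, probes above background on all 12 arrays, trend and robust moderation, in either set, with the compared groups alone, and 0 to 1 with 1 array left out, and the median ran from -0.17 to 0.27, was -0.67 in the high and 0.33 in the low set, and 0.27 without arrays 3 and 12. With IFN the S phase count (4) was 8 with array weights, 1 in the high and 0 in the low set, 2 with the compared groups alone and 2 to 4 with 1 array left out, and the median was -0.60 with median scaling and -0.40 to -0.13 with 1 array left out. The mitosis count (9) was 0 with median scaling and in each set and 3 to 12 with 1 array left out, and the median was 0.54 with median scaling, 0.63 in the low set and 0.75 to 1.20 with 1 array left out. For the IFN response of Rictor+/+ cells the S phase count (0) was 1 with the deposited values, 2 with array weights and 0 with 1 array left out, with medians from -0.46 to -0.25. The mitosis count (0) was 6 with array weights, 1 without arrays 3 and 12 and 0 to 1 with 1 array left out, with medians from -0.74 to -0.44 and -0.24 in the low set. For Rictor-/- cells the S phase count (0) was 1 with the deposited values and with array weights. The S phase median was 0.063 with median scaling, 0.91 in the high and 0.080 in the low set, -0.0034 without arrays 3 and 12 and 0.10 to 0.58 with 1 array left out. The mitosis median was 0.0087 with array weights, 0.79 in the high set, -0.045 without arrays 3 and 12 and 0.043 to 0.43 with 1 array left out. The difference of responses had S phase medians of 0.29 with median scaling, 1.21 in the high set and 0.31 to 0.80 with 1 array left out. Its mitosis medians were 0.67 with median scaling, 0.62 with array weights, 1.63 in the high and 0.41 in the low set, 0.60 without arrays 3 and 12 and 0.69 to 1.12 with 1 array left out. The 15 members called in untreated and the 13 called in IFN-treated cells kept their sign under each setting that measured them. Median scaling shifted the median of all features to -0.26 for IFN in Rictor-/- cells, -0.27 for the difference of responses and -0.26 for the IFN-treated lines. Within a set some groups have 1 array, which is then assumed to vary like the others. For untreated Rictor-/- cells in the high set it is array 3. The cause of these changes was not tested. With 3 arrays a group, signal near background (Cenpf, Ccna2 and Ccne1, each on 1 array) limits what can be seen for the dimmest members.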
